A study of Caenorhabditis elegans with 6 samples.

Results

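The aminoacyl-tRNA synthetase genes of *Caenorhabditis elegans* were taken from the count tables by name, as every gene whose name is a single letter followed by ars, a hyphen and a digit (such as *fars-1*). The rule matched 33 of the 46904 genes in the tables, and all 33 were among the 14899 genes with enough counts to be tested. Of these, 21 carry the suffix -1 or, for *fars-3*, -3, and are called cytosolic by name here, while 12 carry the suffix -2 and are called mitochondrial by name. RNA was sequenced from whole wild-type Bristol N2 hermaphrodites, which were moved at 3 days of age to mNGM plates and fed there for 5 days, and about 200 worms were pooled per group. The control group received *Escherichia coli* OP50, the usual laboratory food. The other groups received a mixture of equal parts of OP50 and a *Lactococcus lactis* strain, either LL100933, which makes no nisin, or LL12007, which makes this antimicrobial peptide. Thus all 3 groups ate OP50, share their genotype and age, and had 2 libraries each. The sample labels number the first strain 100923 and the series text 100913, and the name used here is that of the study.

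Aminoacyl-tRNA synthetases join each amino acid to its own tRNAs, so that every protein made by a cell depends on them. Cytosolic ribosomes and mitochondrial ribosomes use separate tRNA pools, and most animals therefore have a nuclear gene for each compartment, although some genes supply both from alternative start sites. The enzymes fall into a pair of unrelated structural classes, I and II, which are told apart by the fold of the catalytic domain, and in animals several cytosolic members are held together in a multisynthetase complex.

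The name suffix matched the annotation in the count tables only in part. A mitochondrion term stood on 7 of the 12 genes with the suffix -2 and on 4 of the 21 others, namely *aars-1*, *gars-1*, *hars-1* and *kars-1*. No member with the suffix -2 was found for glycine, histidine, lysine, glutamine, threonine, methionine, tryptophan or valine. A tRNA ligase term stood on all 21 genes cytosolic by name and on 11 of the 12 others, *cars-2* being the exception. Structural class I held 16 members and class II 17, and a multienzyme complex term stood on *dars-1*, *ears-1*, *kars-1*, *pars-1* and *qars-1*. The members lie on all autosomes and none on X, with 10 on chromosome I, 5 on II, 6 on III, 8 on IV and 4 on V (WBcel235).

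The libraries held between 14929196 and 21691687 counts. OP50 replicate 2 stood farthest from the other libraries on the first principal component (-52.5, against -21.2 for OP50 replicate 1 and -4.74 to 35.3 for the Lactococcus libraries), which held 48.2% of the variance. No source used here states whether replicates were grown as separate cultures, and the p-values therefore cover only the variation seen between replicate libraries, be it technical or biological. For 2 values against 2, the smallest two-sided p of an exact permutation test is 0.333, which is why the tests below come from edgeR's quasi-likelihood fit over all genes and all 6 libraries.

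Transcript levels per length, as TPM (transcripts scaled to a fixed total per library) computed from the counts and the gene lengths, were higher for the cytosolic genes. In the OP50 libraries the cytosolic genes had a median level of 85.5 and 93.3 TPM, and the mitochondrial genes 30.03 and 30.8 TPM. The summed level of the cytosolic genes was between 4.81 and 5.27 times that of the mitochondrial genes in the 6 libraries. This ratio was 5.08 and 4.81 with OP50, 5.12 and 5.05 with OP50 + LL100933, and 5.27 and 5.23 with OP50 + LL12007. The ranges of OP50 and OP50 + LL100933 overlapped, and both OP50 + LL12007 values lay above them. The difference was not tested. The highest member with OP50 was *sars-1*, the cytosolic seryl enzyme, at 236 ± 14.7 TPM (SD, n = 2), and the lowest was *cars-2*, named for cysteine, at 4.07 ± 0.26 TPM (SD, n = 2). Between these lay *pars-1* (183 TPM), *kars-1* (177 TPM), *cars-1* (157 TPM) and *tars-1* (148 TPM) at the upper end, where *pars-1* and *kars-1* differed by more than their spread (SD of 2.05 and 1.01) and *cars-1* and *tars-1* did not (SD of 18.6 and 15.3). At the lower end stood *dars-2* (8.70 TPM) and *pars-2* (14.4 TPM).

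**Figure D1:**
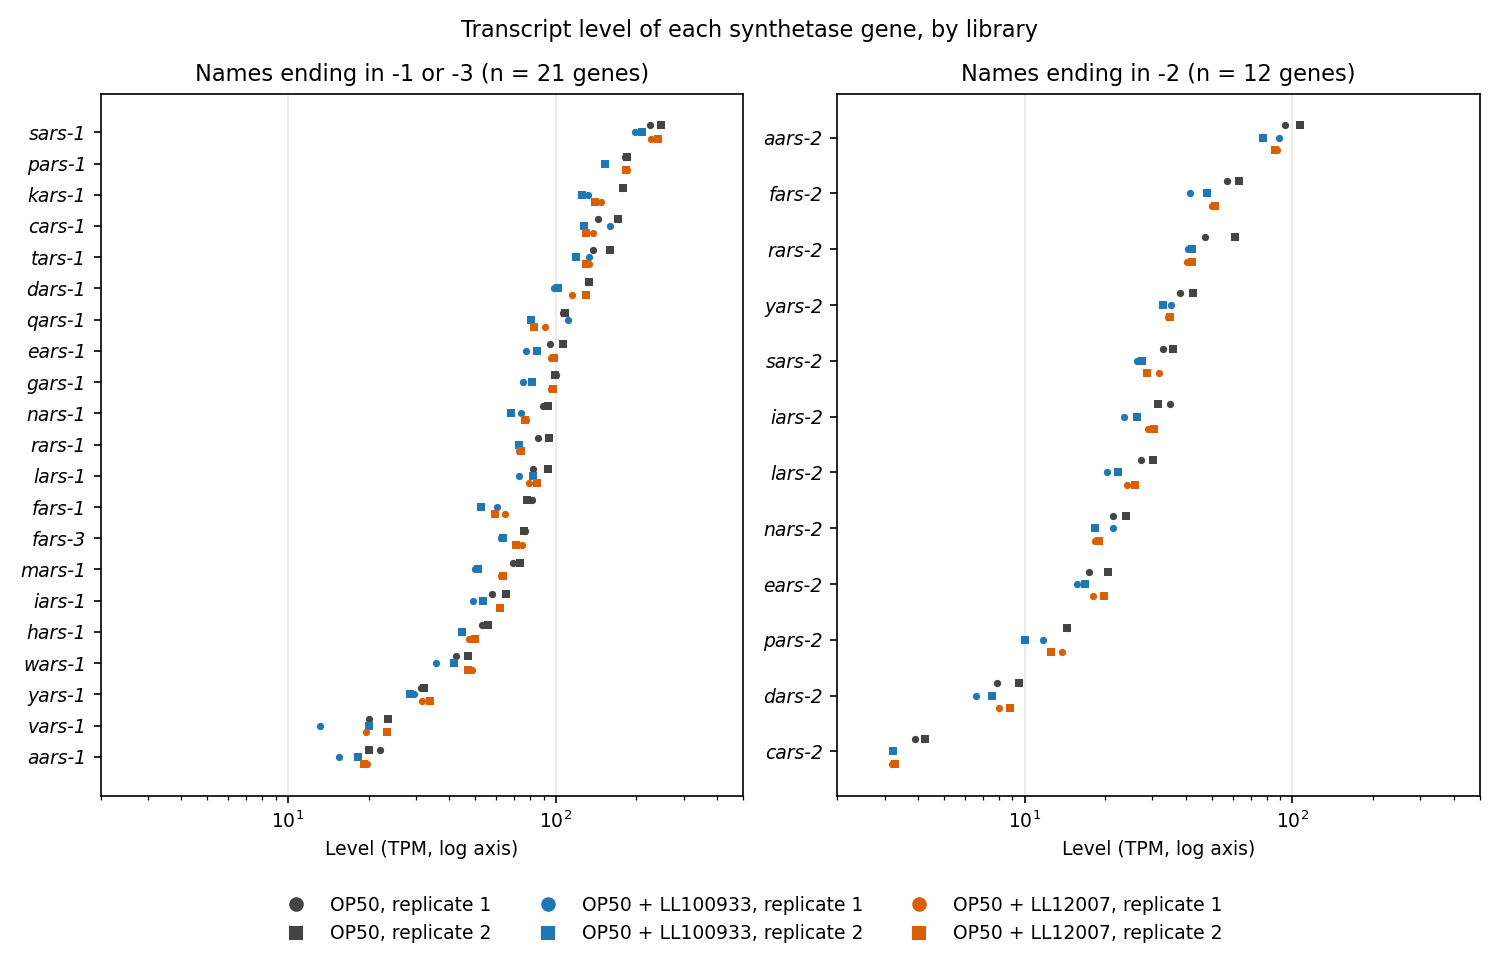
Level of each synthetase gene in TPM (log axis) in every library, with the genes cytosolic by name on the left and those mitochondrial by name on the right, ordered by their mean with OP50; circles are replicate 1 and squares replicate 2. The libraries of a gene lie close together compared with the distance between genes, from *cars-2* at about 4.07 TPM to *sars-1* at 236 TPM with OP50.

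Where an amino acid has a member of each kind, the cytosolic gene was the higher for all but alanine and tyrosine. With OP50 the level of *cars-1* was 38.6 times that of *cars-2*, that of *dars-1* 15.2 times that of *dars-2* and that of *pars-1* 12.8 times that of *pars-2*. The ratio was smallest among the other pairs for phenylalanine, with *fars-1* at 1.33 times and *fars-3* at 1.27 times the level of *fars-2*, and for arginine, with *rars-1* at 1.66 times *rars-2*. For alanine the order was turned, with *aars-1* at 21.1 ± 1.47 TPM and *aars-2* at 100.2 ± 9.44 TPM (SD, n = 2 each, OP50). This ratio of 0.210 stayed between 0.175 and 0.237 in the 6 libraries, so that *aars-2* lay above the median of the cytosolic genes and *aars-1* below that of the mitochondrial ones. For tyrosine the level of *yars-1* was 0.789 times that of *yars-2* with OP50, and lay below it in every library (ratio of 0.753 to 0.968). Valine gave a further mismatch, since *vars-1* had 21.9 TPM and *glp-4*, which encodes another valyl-tRNA synthetase under a name the rule does not match, had 63.6 TPM. The split by suffix is one by name, and the location of the products was not measured.

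With OP50 + LL100933, every synthetase gene had a mean below that with OP50. The 33 log2 fold changes lay between -0.49 and -0.12 with a median of -0.30, while the median over all genes tested was 0.02. Values below 0 were found for 48.4% of all genes tested. The median was -0.28 for the 21 genes cytosolic by name and -0.34 for the 12 mitochondrial by name. As a share of all counts of a library, the members together held 0.410% and 0.412% with OP50, 0.353% and 0.337% with OP50 + LL100933, and 0.384% and 0.385% with OP50 + LL12007. Germline markers were lower in the same comparison (median -0.45, 3 of 8 passing the test), and their part in the synthetase values was not tested. In RNA of whole worms, fewer cells of a type and less RNA per cell cannot be told apart.

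Calls were read against their share among all genes. At an adjusted p under 0.05 in edgeR's quasi-likelihood test, 3 members were lower (*mars-1*, *fars-2* and *lars-2*) and 0 were higher, where 2.24% of all genes tested were lower and 4.38% higher. At an unadjusted p under 0.05, 20 members were lower and 0 higher, where 15.8% of all genes were lower and 15.6% higher. In 30 of the 33 members both OP50 + LL100933 libraries lay below both OP50 libraries, which held for 29.9% of all genes (29.2% lay above), and the libraries overlapped for *cars-1*, *qars-1* and *yars-1* alone. DESeq2 on the 6 libraries called 5 members lower (*fars-1*, *kars-1*, *dars-1*, *mars-1* and *fars-2*) and 0 higher, where 5.11% of the 10574 genes to which it gave an adjusted p were lower and 8.62% higher. The count at an unadjusted p under 0.05 was 13 without OP50 replicate 1, 9 without OP50 + LL100933 replicate 2, and 13 and 11 without OP50 + LL12007 replicate 1 and replicate 2, in place of 20. It was 13 with upper-quartile scaling and 10 with DESeq2 or edgeR on the pair of groups alone.

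**Figure D2:**
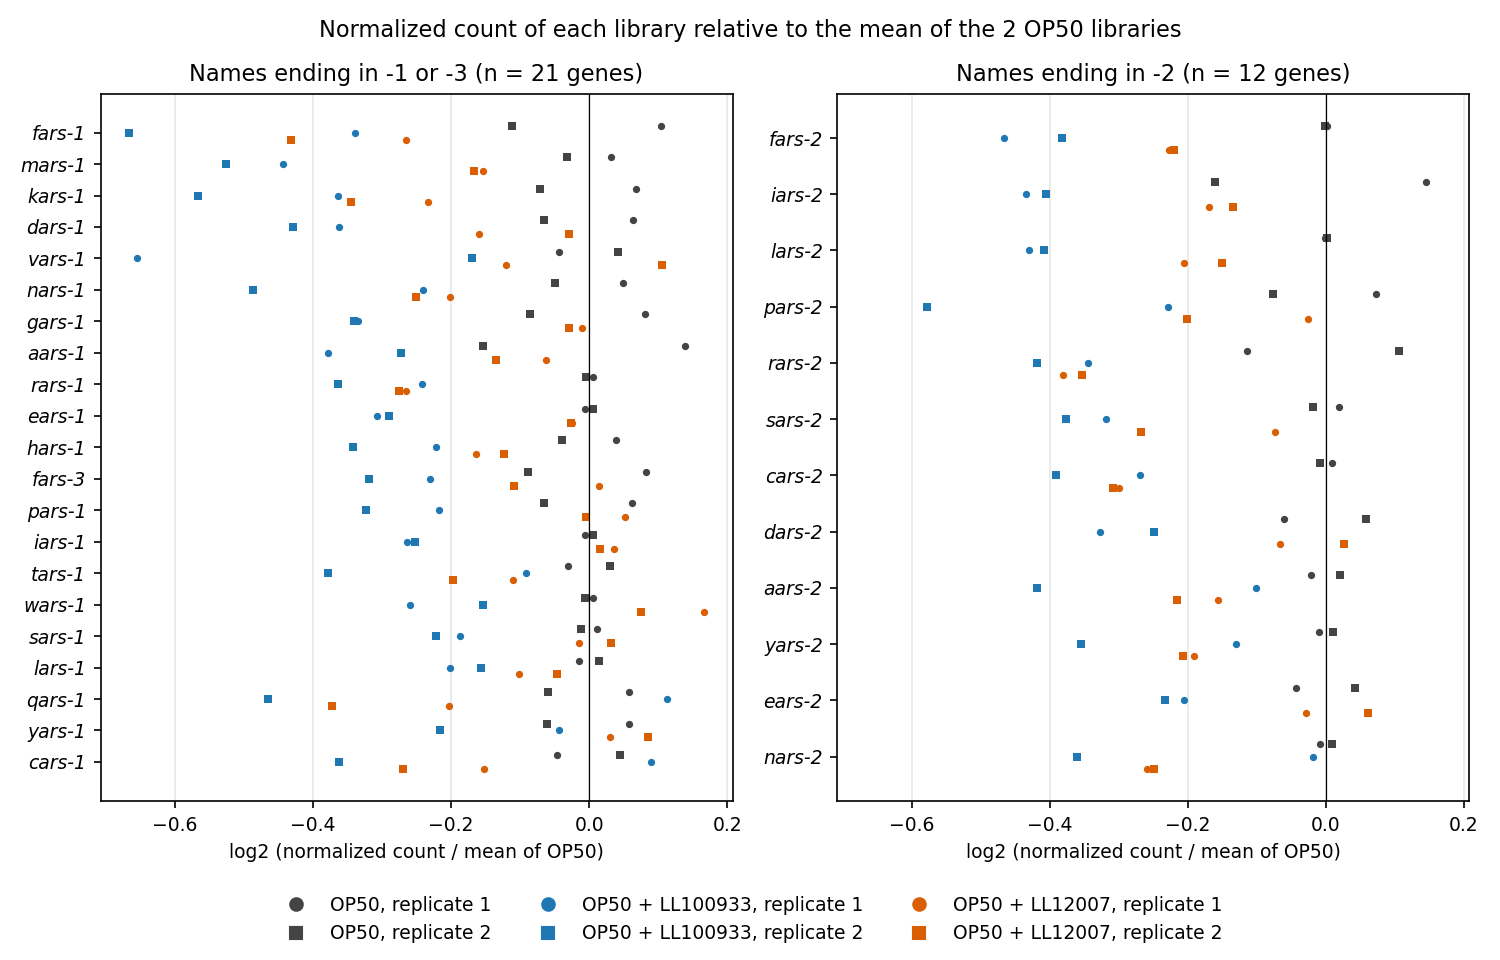
Normalized count of each library divided by the mean of both OP50 libraries, on a log2 axis, for the 21 genes cytosolic by name (left) and the 12 mitochondrial by name (right), ordered by the fold change with OP50 + LL100933; circles are replicate 1 and squares replicate 2. The OP50 + LL100933 libraries lie to the left of both OP50 libraries in 30 of 33 genes, and the OP50 + LL12007 libraries do so in 19.

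*mars-1* (chromosome IV, 11631941 to 11635487, minus strand) encodes the cytosolic methionyl-tRNA synthetase, which charges both the initiator and the elongator methionine tRNA. It had 2878 and 2753 normalized counts with OP50, 2069 and 1956 with OP50 + LL100933, and 2529 and 2509 with OP50 + LL12007. All libraries of the 3 groups were apart, with OP50 + LL100933 lowest and OP50 + LL12007 between. It fell by 0.48 on the log2 scale with OP50 + LL100933 (standard error, SE, 0.10, 95% interval -0.71 to -0.25, adjusted p = 0.0385 from edgeR's quasi-likelihood test), which is 28.5% fewer normalized counts. The value for OP50 + LL12007 was -0.16 (SE 0.10, adjusted p = 0.273 from edgeR). The call for *mars-1* was lost when OP50 + LL100933 replicate 1 or replicate 2 was left out (adjusted p = 0.0659 and 0.197 from edgeR) and when OP50 + LL12007 replicate 1 or replicate 2 was (adjusted p = 0.101 and 0.104), while the log2 fold change stayed between -0.53 and -0.43. In these 4 fits hardly any gene was called lower, namely 0, 0, 5 and 7 over all genes, against 334 with all libraries.

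The other members that fell were mitochondrial by name. *fars-2* (chromosome V, 19897977 to 19907434, minus strand), which encodes the mitochondrial phenylalanyl enzyme, had 1173 and 1171 normalized counts with OP50, 849 and 899.6 with OP50 + LL100933, and 1002 and 1006 with OP50 + LL12007. Its groups did not overlap either, and the replicates of OP50 and of OP50 + LL12007 were nearly equal. It fell by 0.42 with OP50 + LL100933 (SE 0.10, adjusted p = 0.0462 from edgeR's quasi-likelihood test) and had a value of -0.22 with OP50 + LL12007 (SE 0.10, adjusted p = 0.149). *lars-2*, the mitochondrial leucyl-tRNA synthetase gene known in worms from a long-lived mutant, had 974 and 976 normalized counts with OP50, 724 and 735 with OP50 + LL100933, and 846 and 878 with OP50 + LL12007. Here too the 3 groups were apart in the same order. With OP50 + LL100933 *lars-2* fell by 0.42 (SE 0.11, adjusted p = 0.0478 from edgeR), and it had a value of -0.18 (SE 0.11, adjusted p = 0.243) with OP50 + LL12007. Under 9 other scalings, filters, tools and fits, the call of *fars-2* with OP50 + LL100933 was kept in 3 and that of *lars-2* in 1. Their log2 fold changes stayed between -0.43 and -0.36. Both calls held when OP50 replicate 1 was left out (1038 genes lower over all genes) and were lost without OP50 replicate 2 (194 genes lower) or without any of the *Lactococcus* libraries, where 0 to 7 genes were lower. The adjusted p without another library was between 0.0823 and 0.190 for *fars-2* and between 0.0896 and 0.203 for *lars-2*.

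The largest change in either comparison by size was that of *fars-1*, which did not pass the test. *fars-1* and *fars-3* encode the subunits of the cytosolic phenylalanyl-tRNA synthetase. *fars-1* had 1959.9 and 1688 normalized counts with OP50, 1442 and 1149 with OP50 + LL100933, and 1518 and 1352 with OP50 + LL12007. Both *Lactococcus* groups lay below OP50 and overlapped each other, and replicate 2 was lower than replicate 1 in each group. Its log2 fold change was -0.49 with OP50 + LL100933 (SE 0.14, adjusted p = 0.0584 from edgeR's quasi-likelihood test) and -0.35 with OP50 + LL12007 (SE 0.14, adjusted p = 0.104). *fars-1* passed with OP50 + LL100933 when OP50 replicate 2 was left out (adjusted p = 0.0474 from edgeR). *fars-3* had 1924 and 1709 normalized counts with OP50, 1548 and 1455 with OP50 + LL100933, and 1834 and 1684 with OP50 + LL12007. Its OP50 + LL100933 libraries were below the rest and its OP50 + LL12007 libraries overlapped those of OP50, with a log2 fold change of -0.27 (SE 0.11, adjusted p = 0.128 from edgeR) in the first comparison.

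Further members came close to the threshold with OP50 + LL100933. *kars-1*, the lysyl-tRNA synthetase gene, which has both a mitochondrion and a multienzyme complex term, had 4968 and 4511 normalized counts with OP50, 3684 and 3198 with OP50 + LL100933, and 4033 and 3733 with OP50 + LL12007. All 4 *Lactococcus* libraries were below both OP50 libraries. Its log2 fold change was -0.46 (SE 0.12, adjusted p = 0.0540 from edgeR's quasi-likelihood test) with OP50 + LL100933 and -0.29 (SE 0.12, adjusted p = 0.125) with OP50 + LL12007. *dars-1*, for cytosolic aspartyl-tRNA synthetase, was at -0.40 (adjusted p = 0.0571 from edgeR), *iars-2*, for the mitochondrial isoleucyl enzyme, at -0.42 (adjusted p = 0.0645) and *rars-2*, for the mitochondrial arginyl enzyme, at -0.38 (adjusted p = 0.0690) with OP50 + LL100933. For 20 members the 95% interval of the log2 fold change, which is not adjusted for the number of genes, lay below 0. This restates the count at an unadjusted p under 0.05 from edgeR, at which 15.8% of all genes were lower.

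Of the members nearest to 0 with OP50 + LL100933, *cars-1* and *qars-1* had libraries of that group that disagreed. *cars-1*, which encodes cysteinyl-tRNA synthetase, had 6219.7 in OP50 + LL100933 replicate 1 and 4548 in replicate 2, on either side of 5661 and 6029.5 with OP50, while OP50 + LL12007 gave 5257 and 4847 normalized counts. *qars-1*, for glutaminyl-tRNA synthetase, behaved likewise with 3621 and 2425 for OP50 + LL100933, 3486 and 3212 for OP50, and 2909.7 and 2586 for OP50 + LL12007. For both genes OP50 + LL100933 replicate 1 was the highest of the 6 libraries and replicate 2 the lowest. The log2 fold change with OP50 + LL100933 was -0.12 for *cars-1* (SE 0.16, adjusted p = 0.633 from edgeR) and turned to 0.10 without OP50 + LL100933 replicate 2. For *qars-1* it was -0.15 (SE 0.18, adjusted p = 0.596 from edgeR) and turned to 0.12 without that library. With OP50 + LL12007 the values were -0.21 for *cars-1* (SE 0.16, adjusted p = 0.347 from edgeR) and -0.29 for *qars-1* (SE 0.18, adjusted p = 0.265), and both libraries lay below OP50.

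Among the genes mitochondrial by name, *nars-2*, named for asparagine, was nearest to 0 with OP50 + LL100933. It had 385 and 390.1 normalized counts with OP50, 383 and 302 with OP50 + LL100933, and 324 and 326 with OP50 + LL12007. OP50 + LL100933 replicate 1 was within a few counts of OP50 and replicate 2 was the lowest library. The log2 fold change of *nars-2* was -0.18 with OP50 + LL100933 (SE 0.15, adjusted p = 0.447 from edgeR) and -0.25 with OP50 + LL12007 (SE 0.15, adjusted p = 0.253). Without OP50 + LL100933 replicate 2 the first of these was -0.01.

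OP50 + LL12007 gave smaller differences from OP50, and no synthetase gene passed the test. The 33 log2 fold changes lay between -0.37 and 0.12 with a median of -0.15 (0.02 over all genes tested), and 27 were below 0, where 49.0% of all genes were. The median was -0.09 for the genes cytosolic by name and -0.18 for those mitochondrial by name. With edgeR's quasi-likelihood test 0 members were lower and 0 higher, where 7.71% of all genes tested were lower and 8.76% higher. At an unadjusted p under 0.05, 4 members were lower (*rars-2*, *fars-1*, *kars-1* and *rars-1*) and 0 higher, where 18.1% of all genes were lower and 18.8% higher, and DESeq2 on the 6 libraries called 0 members, where it called 10.3% of genes lower and 12.0% higher. Instead of 4, the count at an unadjusted p was 2 without OP50 replicate 1, 1 and 0 without OP50 + LL12007 replicate 1 and replicate 2, 1 with upper-quartile scaling and 7 with edgeR on the pair of groups alone. Both libraries lay below both OP50 libraries for 19 members and above them for 2, shares which were 33.9% and 34.6% over all genes. Upper-quartile scaling left 22 members below 0 and library totals left 23, in place of 27. Since both comparisons use the same OP50 libraries, the values of a gene in them are not independent.

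**Figure D3:**
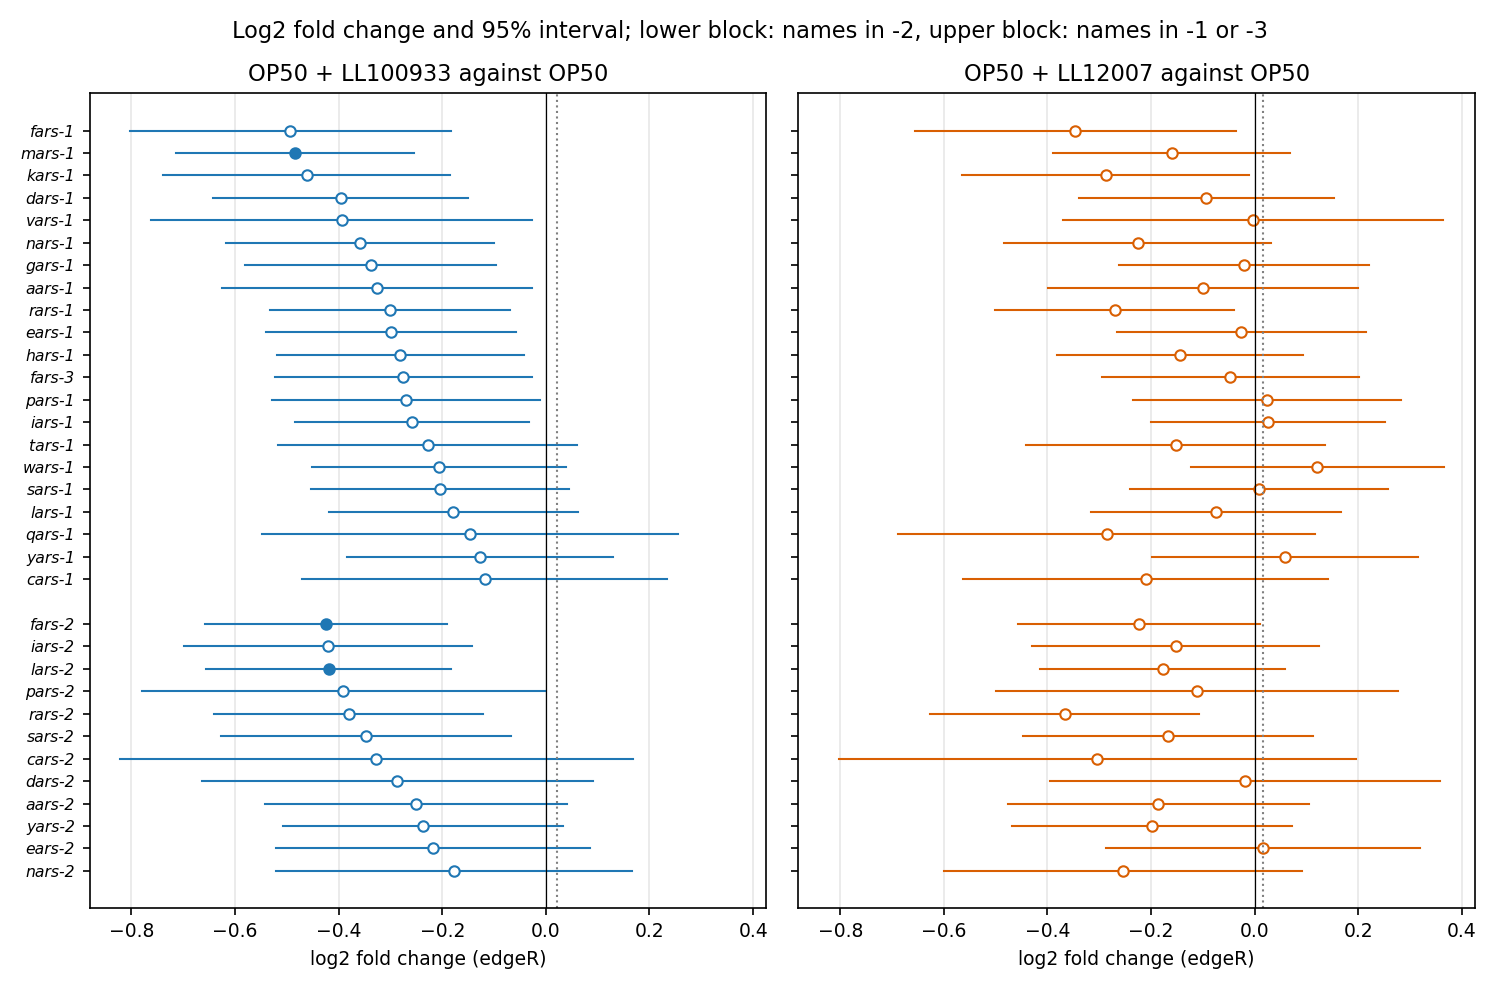
Log2 fold change with its 95% interval from edgeR for each synthetase gene, for OP50 + LL100933 (left) and OP50 + LL12007 (right) against OP50, with the genes cytosolic by name in the upper block and those mitochondrial by name in the lower; filled points passed an adjusted p of 0.05 and the dotted line is the median of all genes tested. All 33 points are below 0 on the left and 27 on the right, and the 3 filled points are *mars-1*, *fars-2* and *lars-2* on the left.

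*rars-2*, the mitochondrial arginyl-tRNA synthetase gene on chromosome II (6125559 to 6127942), had the lowest value with OP50 + LL12007. It had 1098 and 1278 normalized counts with OP50, 936 and 889 with OP50 + LL100933, and 912 and 930.0 with OP50 + LL12007. The *Lactococcus* groups overlapped each other and lay below OP50, whose replicates were farther apart than theirs. The log2 fold change with OP50 + LL12007 was -0.37 (SE 0.12, 95% interval -0.63 to -0.11, adjusted p = 0.0571 from edgeR's quasi-likelihood test). It passed without OP50 replicate 1, the lower of the OP50 libraries (-0.47, adjusted p = 0.0184 from edgeR). *rars-1*, the cytosolic counterpart, had 2747 and 2729 normalized counts with OP50, 2316 and 2128 with OP50 + LL100933, and 2277 and 2262 with OP50 + LL12007. Its values were -0.30 (SE 0.10, adjusted p = 0.0900 from edgeR) and -0.27 (SE 0.10, adjusted p = 0.0927), so for both arginyl genes the *Lactococcus* groups were about equally far from OP50.

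At the other end stood *wars-1*, which encodes tryptophanyl-tRNA synthetase, with 892 and 885 normalized counts with OP50, 743 and 799 with OP50 + LL100933, and 997 and 936 with OP50 + LL12007. The groups did not overlap, with OP50 between the others. Its log2 fold change was -0.21 with OP50 + LL100933 (SE 0.11, adjusted p = 0.224 from edgeR's quasi-likelihood test) and 0.12 with OP50 + LL12007 (SE 0.11, adjusted p = 0.434). Among the genes mitochondrial by name the highest value with OP50 + LL12007 was that of *ears-2*, the glutamyl enzyme, at 0.02 (SE 0.13, adjusted p = 0.935 from edgeR). *ears-2* had 360.4 and 382 normalized counts with OP50, 322 and 316 with OP50 + LL100933, and 364 and 387 with OP50 + LL12007. Its OP50 + LL100933 libraries were the lowest and the other groups overlapped.

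Against each other, the *Lactococcus* diets gave higher means with OP50 + LL12007 for 30 of the 33 members, where 49.6% of all genes tested were higher. The log2 fold changes lay between -0.14 (*qars-1*) and 0.39 (*vars-1*), with a median of 0.20 (0.21 for the genes cytosolic by name and 0.19 for those mitochondrial by name) and of -0.00 over all genes. Both OP50 + LL12007 libraries lay above both OP50 + LL100933 libraries for 22 members, which held for 24.6% of all genes, and below them for 0 (21.9% of all genes). With edgeR's quasi-likelihood test 0 members passed, and neither did any other gene (0.0% of those tested), the lowest adjusted p of a member being 0.335 for *mars-1*. At an unadjusted p under 0.05, 9 members were higher and 0 lower, where 5.26% of all genes were higher and 5.01% lower, and DESeq2 on the 6 libraries called 0 members, where it called 0.514% of genes lower and 0.636% higher. The count of 9 became 5 and 3 without OP50 + LL100933 replicate 1 and replicate 2, and 2 and 1 without those of OP50 + LL12007. Without OP50 + LL100933 replicate 2, 10 members were below 0 in place of 3, 1 of them at an unadjusted p under 0.05. The 95% intervals of the 33 differences reached from -0.54 to 0.76.

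The members that differed most between the diets had intervals that excluded 0 before adjustment. For *mars-1* the difference was 0.32 (SE 0.10, 95% interval 0.09 to 0.55) and for *wars-1* 0.33 (SE 0.11, adjusted p = 0.359 from edgeR). *vars-1*, a valyl-tRNA synthetase gene, had 816 and 866 normalized counts with OP50, 534 and 748 with OP50 + LL100933, and 774 and 905 with OP50 + LL12007. Its low OP50 + LL100933 replicate 1 set it apart, and the OP50 + LL12007 libraries spanned those of OP50. The difference between the diets was 0.39 for *vars-1* (SE 0.16, adjusted p = 0.460 from edgeR) and 0.17 without OP50 + LL100933 replicate 1. *qars-1* had a difference of -0.14 (SE 0.18, adjusted p = 0.825 from edgeR), which became 0.18 without OP50 + LL100933 replicate 1. For *fars-2* and *lars-2* the differences were 0.20 and 0.24 (adjusted p = 0.536 and 0.482 from edgeR).

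The group means stood in the order OP50, OP50 + LL12007, OP50 + LL100933 for 24 of the 33 members, an order found in 16.3% of all genes tested. For 6 members OP50 + LL12007 was highest and OP50 + LL100933 lowest, and for 3 members (*cars-1*, *qars-1* and *nars-2*) OP50 + LL12007 was lowest. An OP50 + LL100933 library was the lowest of the 6 for all 33 members, replicate 2 for 23 and replicate 1 for 10. The highest was an OP50 library for 25 members, an OP50 + LL12007 library for 6 and an OP50 + LL100933 library for 2. On the log2 scale the median difference between replicates was 0.08 (at most 0.31) for OP50. It was 0.11 (at most 0.58) for OP50 + LL100933, against 0.06 (at most 0.23) for OP50 + LL12007. The largest replicate difference was that of *qars-1* with OP50 + LL100933.

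The members were also grouped by structural class and by the multienzyme complex term. With OP50 + LL100933 the median log2 fold change was -0.28 for the 16 genes of class I and -0.33 for the 17 of class II, and with OP50 + LL12007 it was -0.16 and -0.14. All 17 class II genes had both OP50 + LL100933 libraries below both OP50 libraries, as did 13 of the 16 class I genes. The exceptions were *cars-1*, *qars-1* and *yars-1*. The same held for 29.9% of all genes tested. The 5 genes with a multienzyme complex term had a median of -0.30 with OP50 + LL100933 and -0.09 with OP50 + LL12007. Grouped by a mitochondrion term in place of the suffix, a choice made after the data had been seen, the 11 genes with the term had a median of -0.38 and the 22 without it -0.27 with OP50 + LL100933, and -0.18 and -0.08 with OP50 + LL12007. The difference between these groups of genes was not tested, since genes of the same libraries are not replicates.

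A further 4 genes carry a tRNA ligase term under other names and were counted in no total above. *glp-4*, the valyl-tRNA synthetase gene whose mutant lacks a germline at high temperature, had 3048 and 2891 normalized counts with OP50, 2208 and 2270.5 with OP50 + LL100933, and 3068 and 3167 with OP50 + LL12007. Its OP50 + LL100933 libraries were the lowest and its OP50 + LL12007 libraries the highest. It fell by 0.41 with OP50 + LL100933 (SE 0.10, adjusted p = 0.0484 from edgeR's quasi-likelihood test), was at 0.07 with OP50 + LL12007 (adjusted p = 0.639), and differed between the diets by 0.48 (SE 0.10, adjusted p = 0.196). *prx-10*, whose record is annotated as a mitochondrial tryptophanyl-tRNA ligase, had 362 and 409 normalized counts with OP50, 253 and 304 with OP50 + LL100933, and 336 and 392 with OP50 + LL12007, with a log2 fold change of -0.47 (adjusted p = 0.0904 from edgeR) in the first comparison. *Y54E10A.6*, with a phenylalanine ligase term, was at -0.48 (adjusted p = 0.0926 from edgeR) and *Y105E8A.20*, annotated as a mitochondrial methionine ligase, at -0.22 (adjusted p = 0.242) with OP50 + LL100933. In 11 of the 33 members some exon bases are shared with another gene, in 9 of them with a gene on the opposite strand, but never over 10% of the gene (5.70% for *iars-1* and 4.81% for *yars-1*). No source used here states whether the counting used the strand, and a small part of these counts may belong to the neighbour.

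Genes of other steps of translation were set beside the synthetases as lists. Over all genes tested, edgeR called 2.24% lower and 4.38% higher with OP50 + LL100933, and 7.71% and 8.76% with OP50 + LL12007. The 24 translation initiation factors, which bring the initiator tRNA and the mRNA to the ribosome, resembled them, with a median of -0.30 with OP50 + LL100933, all 24 below 0 and 1 lower by edgeR, and a median of -0.08 with OP50 + LL12007, with 0 called (2 lower at an unadjusted p under 0.05 and 0 by DESeq2). The member that fell was *eif-2alpha*, whose phosphorylation by GCN-2 slows initiation when uncharged tRNAs accumulate (-0.45, adjusted p = 0.0435 from edgeR). The 71 mitochondrial ribosomal protein genes had a median of -0.23 with OP50 + LL100933, 61 of them below 0, and of -0.00 with OP50 + LL12007. None was called by edgeR or DESeq2 in either comparison, with 18 and 1 lower at an unadjusted p under 0.05 and 0 higher.

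The cytosolic ribosomal protein genes stood on the other side, but the OP50 libraries disagreed. The summed level of the 81 genes listed was 222488 TPM in OP50 replicate 1 and 183752 TPM in OP50 replicate 2. It was 223905 and 205577 TPM with OP50 + LL100933, and 232657 and 222498 TPM with OP50 + LL12007. OP50 replicate 1 thus lay within the range of the *Lactococcus* libraries, and OP50 replicate 2 below all of them. Of the 80 genes tested, 13 were below 0 with OP50 + LL100933 and 3 with OP50 + LL12007, with medians of 0.09 and 0.21. With OP50 + LL100933, 0 were called by edgeR or DESeq2 and 0 had an unadjusted p under 0.05. With OP50 + LL12007, 3 were higher (*rpl-41.2* at 0.75, *rpl-38* at 0.56 and *rpl-37* at 0.47) and 1 was lower (*rpl-11.1* at -0.73). Among all genes tested, 8.76% were higher and 7.71% lower in this comparison. For the 8 genes listed as cytosolic elongation factors, the medians were -0.06 and -0.07. With OP50 + LL12007 *iff-1* fell by 0.67 and *iff-2* rose by 0.64 (adjusted p = 0.0290 and 0.0485 from edgeR), and with OP50 + LL100933 0 were called by edgeR or DESeq2 and 0 passed before adjustment. *iff-1* is the eIF5A gene of the germline and *iff-2* that of somatic tissues.

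Genes that act on tRNA itself had the lowest medians of the translation lists in both comparisons. Of 25 tRNA processing and modification genes listed, 19 were found, with a median of -0.38 with OP50 + LL100933 (18 below 0, 2 lower) and -0.32 with OP50 + LL12007 (19 below 0, 2 lower). Of all genes tested, 48.4% and 49.0% were below 0 in these comparisons, and edgeR called 2.24% and 7.71% lower. *hoe-1*, which encodes the RNase Z that trims the 3′ end of tRNA precursors, fell by 0.42 and 0.40 (adjusted p = 0.0455 and 0.0305 from edgeR). *elpc-2*, of the Elongator complex that modifies wobble uridines, fell by 0.59 with OP50 + LL100933, and *rtcb-1*, the tRNA ligase of splicing, fell by 0.47 with OP50 + LL12007. Of the mitochondrial translation factors 4 of 8 listed were found, with medians of -0.19 and 0.18, and 0 passed before or after adjustment or with DESeq2.

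Genes of amino acid supply and sensing did not share a direction. Among all genes tested, edgeR called 2.24% lower and 4.38% higher with OP50 + LL100933, and 7.71% and 8.76% with OP50 + LL12007. The 6 amino acid sensing genes found, among them the eIF2 kinase pathway, had medians of -0.19 and 0.00. Of these, 1 was called lower with OP50 + LL100933 and 1 higher with OP50 + LL12007. Besides *eif-2alpha*, *atf-5*, the worm counterpart of the transcription factor ATF4 that is translated when charged tRNA is short, rose by 0.47 with OP50 + LL12007 (adjusted p = 0.0494 from edgeR). The 10 TOR signalling genes had medians of -0.20 and -0.22. With OP50 + LL100933 edgeR called 1 lower and 0 higher, and DESeq2 on all 6 libraries called 1 lower and 1 higher. The gene that edgeR called, *nprl-3*, of a complex that restrains TOR when amino acids are low, fell by 0.46 (adjusted p = 0.0466). Of the amino acid transporter genes 8 were tested, with medians of 0.24 and 0.30. With OP50 + LL12007 edgeR called 1 of them, *aat-5*, which rose by 0.64 (adjusted p = 0.0483). With OP50 + LL100933, 0 transporter genes were called by edgeR or DESeq2, and 2 were higher at an unadjusted p under 0.05 from edgeR. For the 10 genes of mitochondrial stress, among them the chaperone genes *hsp-6* and *hsp-60*, the medians were -0.18 and 0.02, and 0 were called by edgeR or DESeq2 in either comparison (3 lower and 1 higher, then 2 and 2, at an unadjusted p under 0.05).

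**Figure D4:**
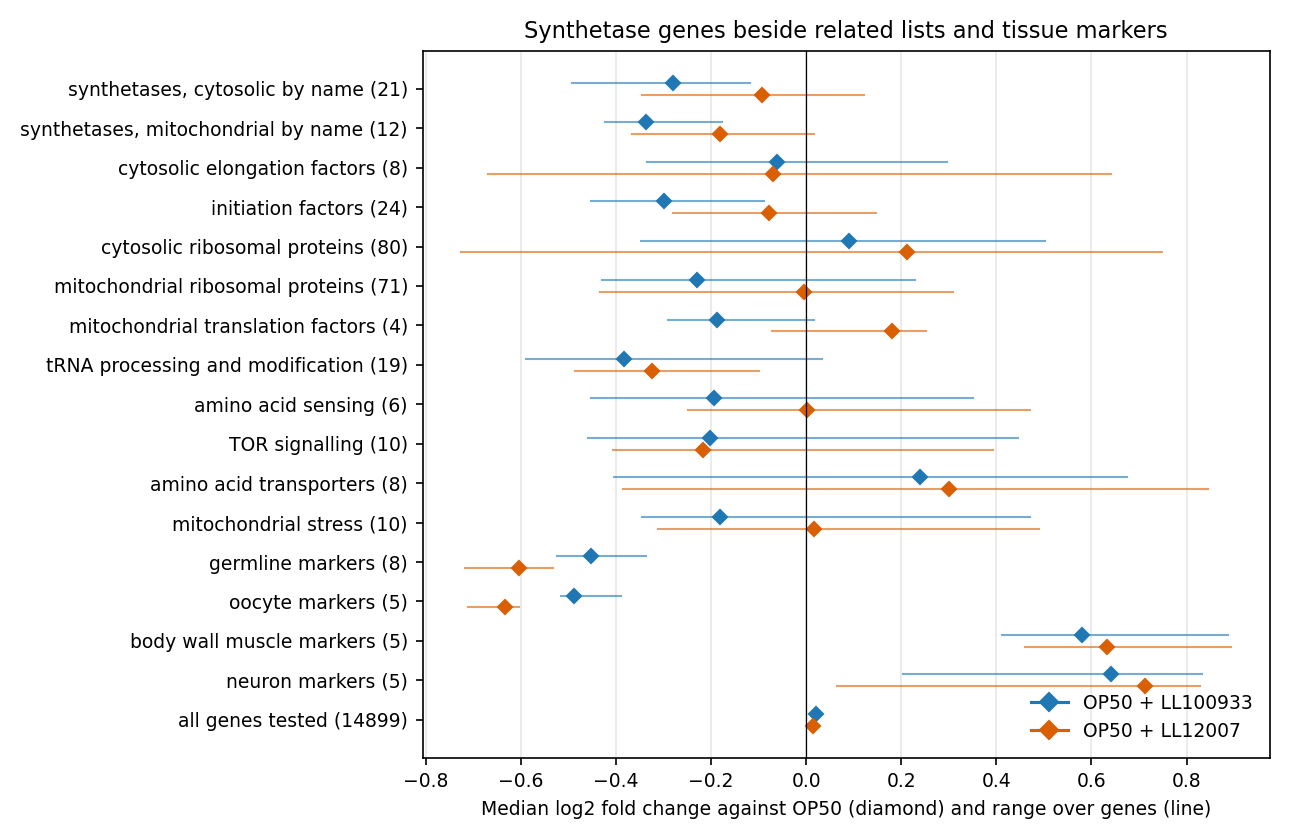
Median log2 fold change (diamond) and range over genes (line) against OP50 for the synthetase genes, other gene lists and tissue markers, with the number of genes tested in parentheses; for all genes tested only the median is drawn. The synthetases, initiation factors and mitochondrial ribosomal proteins have medians between -0.34 and -0.23 with OP50 + LL100933 and between -0.18 and -0.00 with OP50 + LL12007, whereas the germline markers are at -0.60 for OP50 + LL12007 and at -0.45 for OP50 + LL100933.

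Markers of tissues moved with the diets as well. The shares called by edgeR over all genes were 2.24% lower and 4.38% higher with OP50 + LL100933. With OP50 + LL12007 they were 7.71% lower and 8.76% higher. Of 8 germline markers 3 were lower with OP50 + LL100933 (median -0.45) and 8 with OP50 + LL12007 (median -0.60), and their summed level was 868 to 1086 TPM with OP50, 697 to 721 with OP50 + LL100933 and 598 to 647 with OP50 + LL12007. Of 5 oocyte markers 1 and 5 were lower (medians -0.49 and -0.63), with sums of 1426 to 1736, 1108 to 1164 and 944 to 1048 TPM. Of 5 body wall muscle markers 2 and 3 were higher (medians 0.58 and 0.63), with sums of 1582 to 1760 TPM with OP50 against 2295 to 2579 and 2306 to 2523. Of 5 neuron markers 1 and 2 were higher (medians 0.64 and 0.71), with sums of 388 to 393, 486 to 529 and 472 to 504 TPM. No marker of these lists was at 0 in any library, and the worms of all groups thus had RNA of germline, muscle and neurons. The germline and oocyte sums were highest with OP50 and lowest with OP50 + LL12007. Of the 33 synthetase genes, 24 had their OP50 + LL12007 mean between those of the other groups, 6 had it highest and 3 lowest. The part of these tissues in the synthetase values was not tested.

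The remaining markers gave no common direction. The 5 intestine markers found had medians of 0.00 and -0.28, with 0 called by edgeR in either comparison (0 and 1 lower at an unadjusted p under 0.05, and 0 and 2 lower with DESeq2), and OP50 replicate 2 had the highest sum (21598 TPM, against 11963 to 13864 in the others). Of 3 hypodermis markers tested 1 was higher and 1 lower with OP50 + LL12007 (median 0.59), and 1 of the listed markers was at 0 in OP50 + LL100933 replicate 2. The 4 sperm markers had medians of 0.03 and -1.38 with 1 lower with OP50 + LL12007, at sums of 1.72 to 10.04 TPM in all libraries.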

How the data were processed

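Whole-worm RNA was measured in 6 libraries, 2 for each of OP50, OP50 + LL100933 and OP50 + LL12007. The deposited values are whole-number read counts per gene with no normalization. According to the submitters' processing notes, the authors trimmed the reads with Trim Galore 0.6.5, Trimmomatic 0.39 and cutadapt 2.7, aligned them to ce11 (WBcel235) with STAR 2.7.2b and counted them with featureCounts 1.6.4. The treatment of strand and of reads that match several places is not given in the sources used here.

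Genes kept by filterByExpr of edgeR 4.0.16 (R 4.3.3) were scaled with TMM and fitted over all 6 libraries by glmQLFit (robust) with a group term, which left 3 residual degrees of freedom. The 3 contrasts were tested by glmQLFTest and adjusted by Benjamini and Hochberg over all 14899 genes, with a threshold of 0.05. Standard errors (SE) were obtained from each log2 fold change and its F statistic, as the ratio of the absolute fold change to the root of F. Normalized counts are scaled to the mean effective library size, and TPM was computed from counts and gene lengths. The scripts were tested on simulated data. Alternatives were other scalings and filters, DESeq2 1.42.0, fits of each pair of groups, a replicate block and leaving out each library.

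The members, the gene lists and the tests were chosen with earlier results of these data known. Values in every library were given for each member called in any comparison and for the members with the largest and smallest log2 fold change of the cytosolic and of the mitochondrial group against OP50. For other lists, up to 4 called genes by lowest adjusted p were named, or up to 2 of the highest level where none was called. *fars-3*, *kars-1*, *qars-1*, *vars-1*, *rars-1*, *dars-1* and *iars-2*, and the genes named for their level alone, were added after their values had been seen. Gene lists were counted and not tested as sets. No sequences were analysed here.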

Additional observations from a re-analysis of the deposited data

How the results depend on the processing

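The direction of the synthetase genes with OP50 + LL100933 was kept more firmly than the calls. All 33 stayed below 0 under each other scaling, filter and tool. Of 9 alternatives that left out no single library, the call of *mars-1* was kept in 6, that of *fars-2* in 3 and that of *lars-2* in 1. The number called lower, 3 in the main analysis (2.24% of all genes), was 1 with upper-quartile factors (0.953% of all genes), 1 with library totals (1.13%), 1 with a filter at a CPM of 1 (1.65%), 5 with every gene that had a count (3.22%), 5 with DESeq2 on all 6 libraries (5.11%), and 0 with DESeq2 (1.19%) or edgeR (0.0338%) on the pair of groups alone. With each library left out in turn it ranged from 0 to 4, being 0 without any of the 4 *Lactococcus* libraries, where 0 to 7 genes in all were lower, and 4 without OP50 replicate 1 or replicate 2, where 1038 and 194 were. With OP50 + LL12007 it was 0 throughout, except 1 (*rars-2*) without OP50 replicate 1, so that the range was 0 to 1. The median of the genes cytosolic by name with OP50 + LL100933 was -0.22 with upper-quartile factors and ranged from -0.34 to -0.23 with a library left out. With OP50 + LL12007 it was -0.037 with upper-quartile factors and ranged from -0.12 to -0.047 with a library left out, and that of the genes mitochondrial by name was -0.13 with upper-quartile factors. Upper-quartile factors moved the median of all genes to 0.08 and 0.07 in these comparisons. Between the diets no member was called under any setting, while over all genes 67 were lower and 83 higher with DESeq2 on all 6 libraries and 171 and 234 with edgeR on the pair, in place of 0. The counts were 350 and 354 with every gene that had a count, 208 and 272 with DESeq2 on the pair, and 161 and 254 or 196 and 264 without OP50 replicate 1 or replicate 2. The same replicate numbers do not mark paired libraries in the labels, and the differences between replicates 1 and 2 correlated across genes at -0.00, -0.06 and 0.20 between the groups. A fit with the replicate block called 0 members with OP50 + LL100933, with 69 genes lower and 271 higher over all genes in place of 334 and 652. With a library left out, the value with OP50 + LL100933 ranged from -0.36 to 0.10 for *cars-1* and from -0.47 to 0.12 for *qars-1*, and the sign turned without replicate 2 of that group. The value of *ears-2* with OP50 + LL12007 ranged from -0.026 to 0.069, below 0 without OP50 replicate 1 or OP50 + LL12007 replicate 2 (-0.01), and that of *qars-1* between the diets ranged from -0.40 to 0.18, above 0 without OP50 + LL100933 replicate 1. Among the values of the genes described under these settings, 733 kept direction and side of the threshold, 31 lost the call, 11 gained one and 5 turned sign. Members not described in a comparison are outside this tally, and the number below 0 with OP50 + LL12007 fell from 27 to 22 with upper-quartile factors.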
